A study of Mus musculus with 12 samples.

Results

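Interferon response genes and genes of the major histocompatibility complex (MHC) were examined together with B2m in hippocampus and olfactory bulb of mice that lack RasGRF2, a Ras exchange factor, and of wild-type mice. The 38 genes were listed by symbol, and each was represented by the probe set that carries its symbol alone, the one of highest mean over the 12 arrays where there were several. Of the 38, 32 had such a probe set, among 19938 genes measured this way. H2-K1, H2-D1, H2-T23, Isg15 and Gbp2 shared their probe sets with other genes and Ifi44 had none, so these 6 have no value of their own. B2m was already known to be lower in knockout hippocampus when the list was drawn up, and the question was whether that decrease extends to antigen presentation.

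Total RNA came from whole tissue of adult C57BL/6 mice, 3 labelled WT and 3 labelled GRF2 KO, with hippocampus and olfactory bulb taken from each, which gives 4 groups of 3 arrays. The mice lived in a conventional animal facility with exposure to common pathogens, per the labels. How the knockout was made, whether it is present in all cells, and whether the animals were littermates is not stated in the labels. The unit is the log2 intensity of a probe set, normalized by the authors with RMA (robust multi-array average), so a difference of 1 is a factor of 2, and a level cannot be set against that of another probe set.

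MHC class I molecules are made of a heavy chain, such as those encoded by H2-K1 and H2-D1, and a light chain, beta-2-microglobulin, the product of B2m. They show peptides from inside the cell to T cells. The peptides are cut by the immunoproteasome, carried into the endoplasmic reticulum by the Tap transporter and loaded with the help of tapasin. MHC class II molecules show peptides taken up from outside and are made by professional antigen-presenting cells, which in healthy brain are few and sit mostly at its borders. Interferons switch on both systems and a set of antiviral genes through Stat and Irf transcription factors.

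Promoters are shown for B2m, the 1 member that passed the test between genotypes, and for Ifit1 and Ifit3, which differed between the tissues. They are RefSeq sequences of GRCm38.p6, 250 bases before to 50 after the start of the gene, with matches on either strand to GAAA, any 2 bases and GAAA in capitals. This motif is the core of the interferon-stimulated response element, which Stat and Irf factors bind. The windows are chr2:122147437-122147736 for B2m, chr19:34640639-34640938 for Ifit1 and chr19:34583279-34583578 for Ifit3, all on the + strand.
B2m: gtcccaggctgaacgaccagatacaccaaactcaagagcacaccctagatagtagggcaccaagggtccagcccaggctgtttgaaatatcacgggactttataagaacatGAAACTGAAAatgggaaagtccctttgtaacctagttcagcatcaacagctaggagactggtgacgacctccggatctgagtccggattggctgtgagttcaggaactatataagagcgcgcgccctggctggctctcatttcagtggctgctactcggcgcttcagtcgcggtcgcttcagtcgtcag
Ifit1: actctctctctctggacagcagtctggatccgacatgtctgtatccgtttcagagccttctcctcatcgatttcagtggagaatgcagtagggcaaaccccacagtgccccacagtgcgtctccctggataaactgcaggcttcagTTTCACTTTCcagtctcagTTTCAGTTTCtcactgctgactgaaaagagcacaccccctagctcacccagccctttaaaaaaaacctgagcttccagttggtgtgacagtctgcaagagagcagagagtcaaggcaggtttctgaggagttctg
Ifit3: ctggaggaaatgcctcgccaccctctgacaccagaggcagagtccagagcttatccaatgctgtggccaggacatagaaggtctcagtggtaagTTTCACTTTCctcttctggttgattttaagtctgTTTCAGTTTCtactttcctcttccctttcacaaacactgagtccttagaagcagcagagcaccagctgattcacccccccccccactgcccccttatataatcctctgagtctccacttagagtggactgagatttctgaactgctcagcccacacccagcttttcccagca

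In the B2m promoter the match began 139 bases before the start. In that of Ifit1 the matches began 104 and 85 bases before it and in that of Ifit3 156 and 122 bases before it, all on the opposite strand. Among 29 listed genes with a promoter sequence, 12 held the motif, or 41.4%, against 3.99% of all 27025 genes. Besides these 3 they were H2-T23, Stat2, Ifih1, Isg15, Gbp2, Gbp3, Trim30a, Bst2 and Rsad2. The 5 genes of peptide supply and loading with a promoter held 0 matches. The palindrome TTCNNNGAA, the interferon-gamma activated site, was present in 5 of the 29 (17.2%) and in 9.55% of all genes. A match describes letters in the window and not a bound site.

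Markers of the tissues followed the labels in most cases. The marker lists were drawn up with earlier results of these data known, so their calls are no independent check of the labels. Of 10 measured markers of hippocampus, such as Prox1 and Neurod6, all 10 were higher in wild-type hippocampus past the threshold, and 10 of 11 markers of olfactory bulb were lower there, among them Th and Eomes. In knockout 10 of 10 and 8 of 11 were called in these directions, and 2 of the 11 lay above 0. Dlx5, a bulb marker, was higher in knockout bulb, by 0.84, and in the animal averages, by 0.50. Array medians over all probe sets lay between 6.82 and 6.89 in hippocampus and between 6.93 and 6.96 in the bulb, without overlap. Arrays of a group correlated with r of 0.990 to 0.995 across probe sets. Knockout replicate 6 of hippocampus lay farthest out on the second principal component, at -19.5. Rasgrf2, the targeted gene, fell by 0.58 on the log2 scale in knockout hippocampus (limma adjusted p = 0.00197), and its difference in the bulb was -0.14 (adjusted p = 0.532). Which part of the gene its probes read is not stated in the labels.

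B2m was lower in knockout hippocampus, and it was the only one of the 32 measured genes to pass the test there. It read 11.12, 10.70 and 10.95 in the wild-type arrays and 10.54, 10.27 and 10.17 in the knockout arrays. All 3 knockout values lay under the lowest wild-type value. The means were 10.93 ± 0.21 in wild type and 10.33 ± 0.19 in knockout (SD, n = 3). The fall of 0.60 in log2 intensity is 1.51-fold (limma SE 0.112, 95% interval -0.84 to -0.36, adjusted p = 0.0371). Over all genes 22 (0.11%) were called lower and 29 (0.145%) higher, a split that turned to 25 lower and 20 higher when arrays were centred on their medians. Leaving out 1 array ended the call in 4 cases of 6. For wild type these were replicates 1 and 3, with differences of -0.50 and -0.58 at adjusted p of 0.2 and 0.195. For knockout they were replicates 5 and 6, with -0.57 and -0.52 at 0.14 and 0.167. It was 0.176 when the hippocampal arrays were fitted alone, and over all 15 alternatives it ran from 0.0123 to 0.2 and passed in 9.

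In the olfactory bulb B2m was at 11.18, 11.20 and 10.95 in wild type and at 10.68, 10.68 and 10.77 in knockout. The groups again did not overlap, as was so in the lower direction for 8.87% of all genes in the bulb, for 3.66% in hippocampus and for 0.627% in both. The difference of -0.40 (SE 0.112, 95% interval -0.64 to -0.16) did not pass (limma adjusted p = 0.218, unadjusted p = 0.00311), nor did it under any of 15 alternatives (0.111 to 0.442). Of all genes 0.186% were called higher and 0.226% lower in the bulb. The effects in the tissues differed by -0.20 with an interval of -0.54 to 0.14 (adjusted p = 0.644).

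B2m also passed when the tissues of each animal were averaged. These averages are made from the same arrays, among them the hippocampal ones in which B2m was already known to be lower. They are therefore not independent support. The wild-type animals read 10.94, 11.16 and 10.95 and the knockout animals 10.61, 10.47 and 10.47, so each knockout animal lay under each wild-type animal. The difference was -0.50 (SE 0.069, 95% interval -0.65 to -0.35, limma adjusted p = 0.00559), where 0.266% of all genes were called lower, 0.311% were called higher and 5.82% lay apart in the lower direction. It passed without any one of the 6 animals, at adjusted p of 0.0112 to 0.0415. The adjusted p was 0.073 when every probe set was tested as a row of its own.

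**Figure D1:**
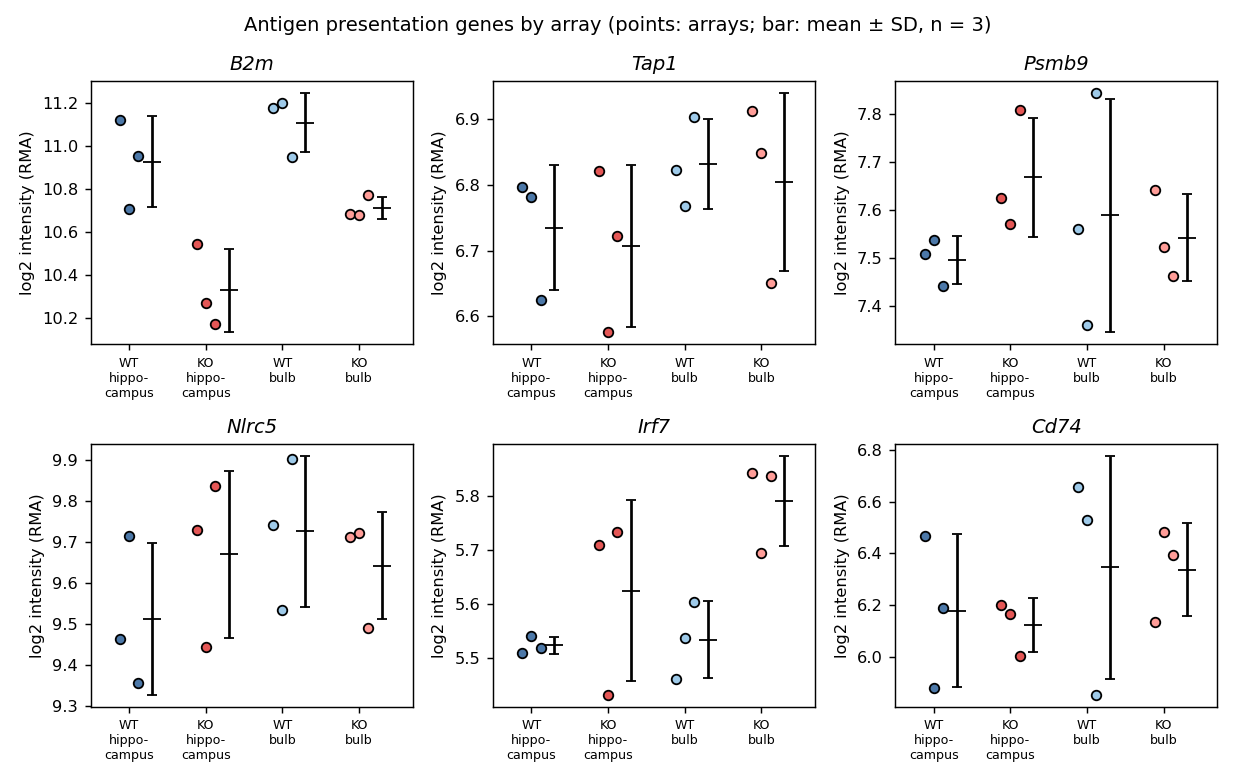
Log2 intensity (vertical axis) of B2m, Tap1, Psmb9, Nlrc5, Irf7 and Cd74 in wild-type (WT) and knockout (KO) arrays of hippocampus and olfactory bulb. Points are arrays and bars the mean ± SD of 3. The knockout points of B2m lie under the wild-type points in both tissues, between 10.17 and 10.54 in hippocampus, while those of Tap1 and Cd74 overlap with wild type.

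No gene of peptide supply and loading was called lower beside B2m. Tap1 and Tap2 encode the peptide transporter, Tapbp encodes tapasin, and Psmb8, Psmb9 and Psmb10 encode catalytic subunits of the immunoproteasome. None of the 6 passed in either tissue (limma), none had an unadjusted p under 0.05 in either, and 5 of 6 differences in hippocampus were above 0. The hippocampal difference was -0.03 for Tap1 (95% interval -0.21 to 0.16), 0.11 for Tap2 and 0.03 for Psmb8. Tapbp, among the 3 members nearest the threshold after B2m, read 8.22, 8.13 and 8.24 in wild type and 8.23, 8.28 and 8.58 in knockout. Its difference was 0.17 (adjusted p = 0.638), and the groups overlapped.

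Psmb9 read 7.51, 7.54 and 7.44 in wild-type hippocampus and 7.62, 7.57 and 7.81 in knockout. These values did not overlap, yet the difference of 0.17 did not pass (adjusted p = 0.642). Tap2 did not overlap either, and the wild-type and knockout values of 9.39% of all genes lay apart in this direction in hippocampus. In the bulb Psmb9 read 7.56, 7.36 and 7.84 in wild type and 7.64, 7.52 and 7.46 in knockout, with overlap. The bulb differences of the 6 genes ran from -0.13 for Psmb8 to 0.07 for Tapbp.

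The class I heavy chains could be read only through probe sets annotated to several genes, whose values belong to none of them alone. A pair of probe sets lists both H2-K1 and H2-D1. The first read 7.83, 7.96 and 7.91 in wild-type and 7.92, 8.11 and 8.01 in knockout hippocampus, and the other 7.65, 7.37 and 7.36 against 7.35, 7.54 and 7.37. Their differences were 0.12 (SE 0.085) and -0.04 (SE 0.114), at limma adjusted p of 0.723 and 0.934 over all probe sets. In the bulb they were 0.22 and 0.03 (adjusted p = 0.431 and 0.952). There the first read 8.27, 8.24 and 8.41 in wild type and 8.68, 8.47 and 8.43 in knockout. These values did not overlap, as for 8.22% of all genes in this direction, and those of the other did. The probe set shared by H2-T23, a non-classical class I gene, and H2-T-ps differed by 0.11 in hippocampus (adjusted p = 0.671) and by -0.05 in the bulb. Its bulb values were 7.12, 7.12 and 7.12 in wild type and 7.11, 7.03 and 7.06 in knockout. They did not overlap, as for 8.87% of all genes in the lower direction. None of these 3 probe sets was called in either tissue.

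The transcription factors that drive these genes did not pass either. Nlrc5 is the class I transactivator and Ciita the class II transactivator. Stat2 and Irf9 form the complex that carries the type I interferon signal, and Irf1 and Irf7 are interferon regulatory factors. None of the 6 passed in hippocampus (limma, 0 at an unadjusted p under 0.05) or in the bulb (1 at an unadjusted p under 0.05). Nlrc5 had 19 single-symbol probe sets, of which 17 lay above 0 in hippocampus, with differences of -0.03 to 0.29 and none called. In the bulb 5 of the 19 lay above 0. These probe sets read 1 gene on the same arrays and are not separate observations. Over all 19938 genes 12569 lay above 0 in hippocampus and 8869 in the bulb. Ciita differed by 0.10 in hippocampus and -0.15 in the bulb (adjusted p = 0.79 and 0.612).

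Irf7 was the member nearest the threshold in the bulb after B2m, in the opposite direction. It read 5.46, 5.54 and 5.60 in wild-type and 5.84, 5.69 and 5.84 in knockout bulb, without overlap, as for 8.22% of all genes in this direction. The difference was 0.26 (SE 0.083, 95% interval 0.08 to 0.43) and did not pass (limma adjusted p = 0.282, unadjusted p = 0.00763). In hippocampus Irf7 read 5.51, 5.54 and 5.52 in wild type and 5.71, 5.43 and 5.73 in knockout, where the knockout values spread around the wild-type ones. Irf9 read 7.38, 7.50 and 7.43 against 7.49, 7.74 and 7.52 in hippocampus, a difference of 0.15 (adjusted p = 0.608), and differed by 0.14 in the bulb. Stat2 and Irf1 differed by at most 0.07 in either direction in each tissue.

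**Figure D2:**
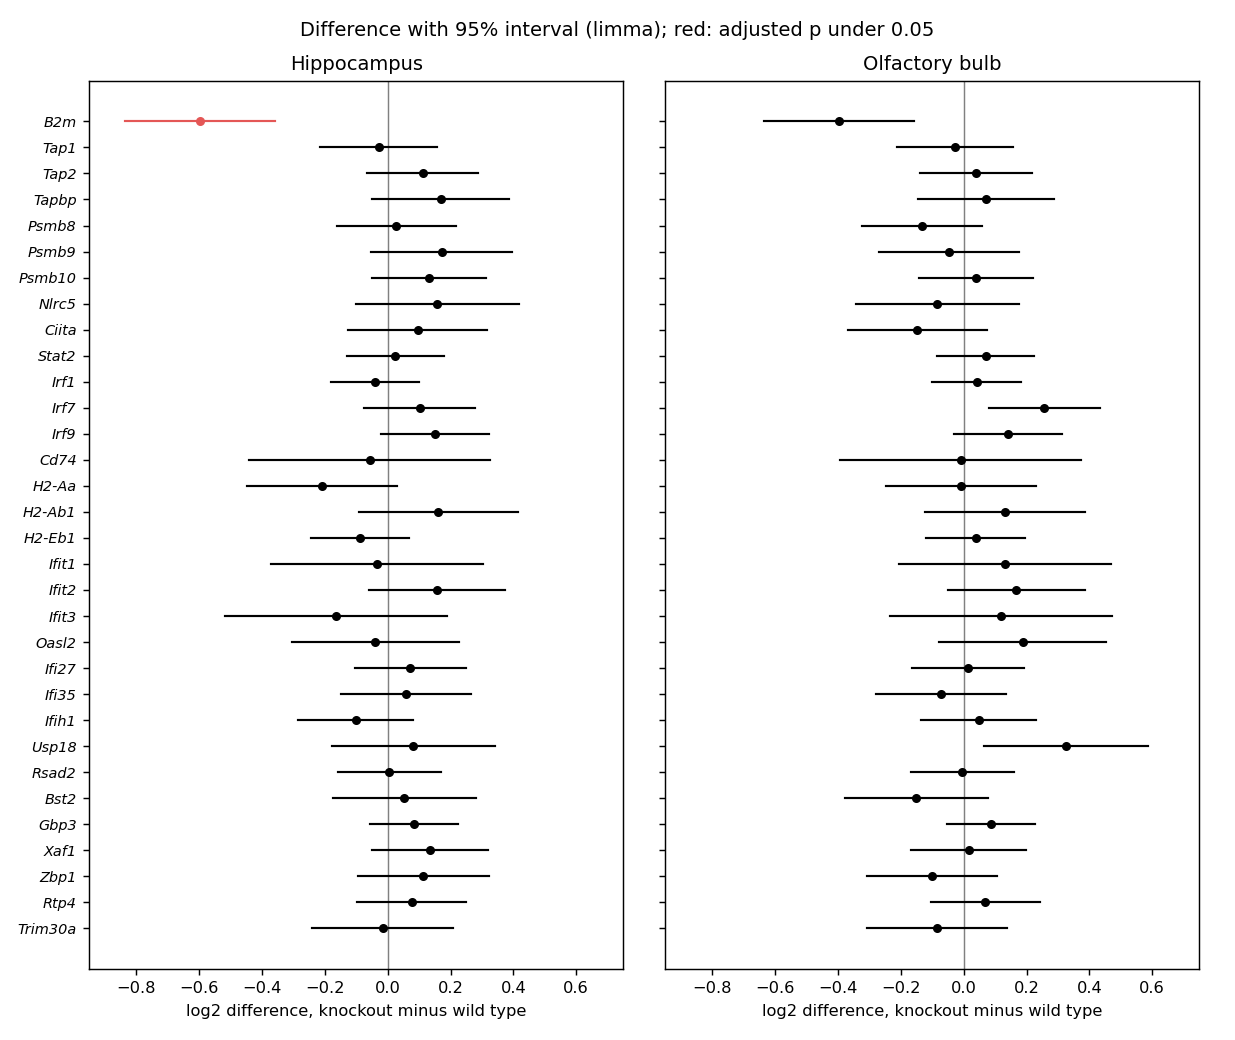
Difference between knockout and wild type on the log2 scale (horizontal axis) with its 95% limma interval, for the 32 measured genes, in hippocampus (left) and olfactory bulb (right). B2m, in red, is the only gene past the adjusted threshold, in hippocampus at -0.60, and the lines of the other 31 genes end above -0.52 there.

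No class II gene was called between genotypes. H2-Aa, H2-Ab1 and H2-Eb1 encode chains of class II molecules, and Cd74 encodes the invariant chain that escorts them. None of the 4 passed in either tissue (limma, 0 at an unadjusted p under 0.05). H2-Aa read 5.79, 5.39 and 5.45 in wild-type hippocampus and 5.54, 5.29 and 5.17 in knockout, and the groups overlapped. Its difference of -0.21 (95% interval -0.45 to 0.03) had an adjusted p of 0.608. Cd74 had the widest interval of the 4, -0.44 to 0.33 around -0.06 in hippocampus, with an SD of 0.30 in wild type. H2-Ab1 and H2-Eb1 differed by 0.16 and -0.09 in hippocampus and by 0.13 and 0.04 in the bulb.

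The 15 measured interferon-stimulated effectors contained 0 calls in either tissue. They include Ifit1, Ifit2 and Ifit3, which bind viral RNA, the RNA sensor gene Ifih1, Usp18, which damps interferon signalling, Bst2, which tethers budding virus, and Zbp1, a sensor of Z-form nucleic acids. At an unadjusted p under 0.05 there were 0 in hippocampus and 1 in the bulb (limma), and the median difference was 0.06 and 0.05. Isg15, a ubiquitin-like modifier, and Gbp2, a guanylate-binding protein gene, were read only through probe sets shared with Gm9706 and Gbp2b, which differed by 0.15 and -0.04 in hippocampus and by -0.03 and -0.18 in the bulb, none of them called. The effector under that p was Usp18, at 6.61, 6.63 and 6.37 in wild-type and 7.14, 6.88 and 6.57 in knockout bulb. Its groups overlapped, and the difference of 0.33 (SE 0.122) had an adjusted p of 0.347. In hippocampus Usp18 differed by 0.08. The other effectors, with Oasl2, Ifi27, Ifi35, Rsad2, Gbp3, Xaf1, Rtp4 and Trim30a among them, lay between -0.17 and 0.16 in hippocampus and between -0.15 and 0.19 in the bulb.

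For the 31 genes other than B2m the hippocampal differences ran from -0.21 to 0.17 with a median of 0.07, and 21 lay above 0. Over all genes the median was 0.03. None of the 31 had an unadjusted p under 0.05 in hippocampus, against 8.91% of all genes, and the lower end of the 95% interval lay above -0.60 for all 31. The lowest end was -0.52, for Ifit3, so smaller decreases stay within the intervals of several genes. In the bulb the 31 ran from -0.15 to 0.33 with a median of 0.04, and 2 had an unadjusted p under 0.05, against 11.3% of all genes. Averaged by animal, 4 of the 31 had an unadjusted p under 0.05, all in the higher direction, against 9.93% of all genes, and none passed (limma). These were Irf7 (0.18), Usp18 (0.20), Ifit2 (0.16) and Irf9 (0.15), at adjusted p of 0.372 to 0.489.

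The effect of the knockout did not pass as different between the tissues for any of the 32 genes (limma, 0 at an unadjusted p under 0.05, where 0.015% of all genes passed and 10.7% had such a p). Nearest the threshold were Ciita, with a difference of effects of 0.24 (adjusted p = 0.555), Zbp1 with 0.22 (adjusted p = 0.573) and Psmb9 with 0.22 (adjusted p = 0.598). Ciita read 6.07, 6.26 and 6.02 in wild-type hippocampus, 6.24, 6.14 and 6.26 in knockout hippocampus, 6.07, 6.15 and 6.47 in wild-type bulb and 6.17, 6.15 and 5.93 in knockout bulb. Zbp1 read 6.42, 6.42 and 6.27, then 6.61, 6.31 and 6.53, then 6.61, 6.49 and 6.66, then 6.66, 6.45 and 6.34 in the same order. In both genes the groups overlapped in each tissue.

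The mean of the 6 genes of peptide supply and loading was 0.03 to 0.15 above the wild-type mean in the knockout hippocampi. The lowest of these values lay barely above the highest wild-type value, 0.03. The median difference of all genes in hippocampus was 0.03 in the same direction, which is more than the gap between these values. In the bulb that mean overlapped. Single arrays stood out where the effectors were averaged. The mean deviation of the 15 effectors from the wild-type mean of the tissue was 0.23 in knockout replicate 4 of the bulb, and 0.02 and -0.10 in the other knockout arrays. The wild-type bulb arrays lay between -0.05 and 0.03. That array was the highest of all 12 for Ifit1, at 7.52, for Ifit3, at 8.01, and for Usp18, at 7.14. The hippocampus of the same animal was at 0.06, within the wild-type range of -0.03 to 0.06. The mean of the class II genes was highest in wild-type replicate 1 in both tissues, at 0.19 and 0.14, which are different animals by the animal code and the same animal by the number in the title.

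**Figure D3:**
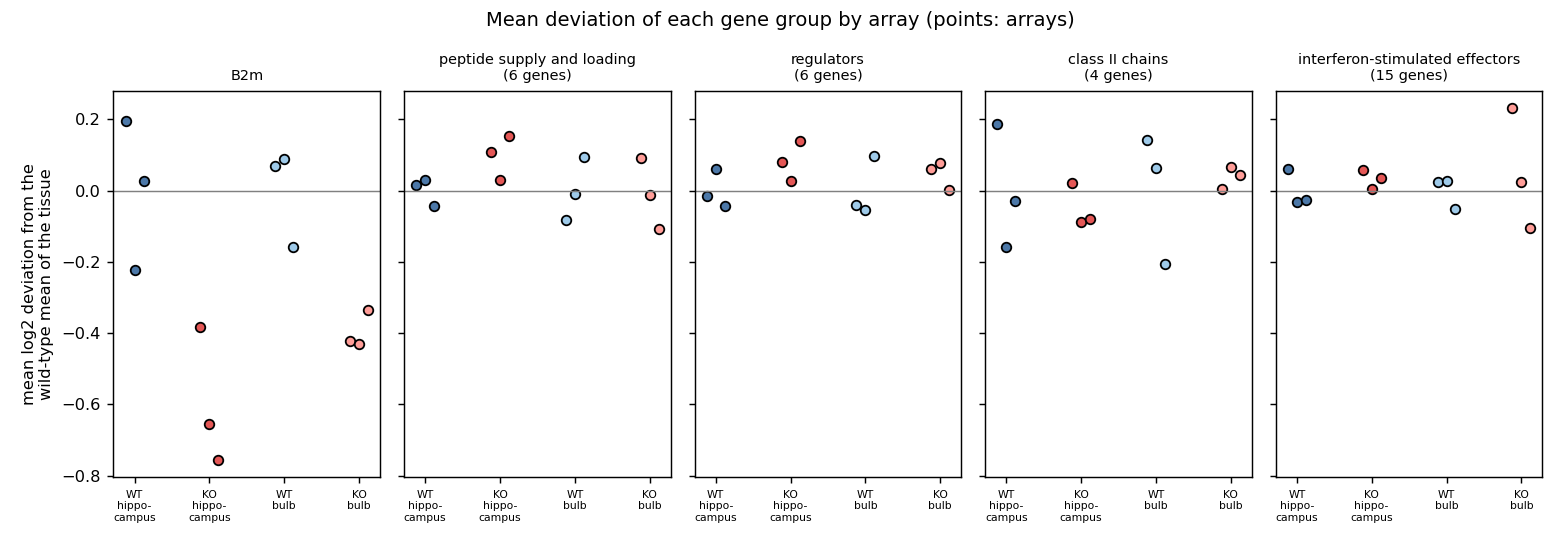
Mean log2 deviation from the wild-type mean of the tissue (vertical axis) for B2m and 4 gene groups, 1 point for each of the 12 arrays (WT wild type, KO knockout). The B2m points of knockout lie between -0.75 and -0.34, while the points of every other group lie between -0.21 and 0.23. The genotypes overlap there except for peptide supply and loading in hippocampus, where knockout starts at 0.03 and wild type barely ends below it, also at 0.03.

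B2m is made by most cells, with high levels in microglia and endothelium, so markers of such cells were read beside it. In bulk tissue fewer cells of a type and less RNA per cell cannot be told apart. The mean of 15 microglial markers lay 0.002 to 0.010 above the wild-type mean in the 3 knockout hippocampi, with 7 of 15 above 0 and none called. Of 11 endothelial markers 10 lay below 0 in hippocampus and 9 in the bulb, with medians of -0.13 and -0.10 and none called. Their mean was -0.14, -0.06 and -0.18 in the knockout hippocampi, and the wild-type hippocampi spanned -0.13 to 0.12. In the bulb the endothelial mean was -0.10, -0.15 and -0.12 in knockout and -0.05 to 0.07 in wild type, without overlap.

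Of 10 meningeal and fibroblast markers 6 lay below 0 in hippocampus and 8 in the bulb. Their mean was -0.18, -0.19 and -0.28 in knockout hippocampi, inside the wild-type range of -0.31 to 0.35. None of 11 T and NK cell, 5 B cell, 8 dendritic cell or 8 border macrophage markers was called in a comparison of genotypes. Of 10 astrocyte reactivity genes 4 lay above 0 in hippocampus and 2 in the bulb. Serpina3n was called higher in knockout hippocampus, by 0.97, and in the animal averages, by 0.69. Vim was called lower in the animal averages, by -0.43. In those averages 0 of 10 meningeal and 1 of 11 endothelial markers lay above 0, where 11047 of all 19938 genes did. An unadjusted p under 0.05 was found for 3 and 4 of them, against 9.93% of all genes, and none was called (limma). The part of any of these shifts in the difference of B2m was not tested.

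B2m lies on chromosome 2, and other genes near it also passed. Among the 50 measured genes on each side of it in the order of the GRCm38.p6 gene table, 2% passed in hippocampus, 4% in the bulb and 6% in the animal averages, where 0.256%, 0.411% and 0.577% of all genes passed. Pla2g4e, a cytosolic phospholipase A2, rose by 1.21 in hippocampus and 2.27 in the bulb, and Haus2, an augmin subunit of the spindle, fell by 0.56 and 0.54. They stood at places -41 and -33 from B2m. In the bulb Strc, which encodes stereocilin, fell by 0.63 and Zfp106 rose by 0.36. The animal averages added Lcmt2 (-0.45) and Bloc1s6 (0.33). None of the called genes lay within 10 places of B2m, and its direct neighbours Patl2 and Trim69 differed by 0.12 and 0.11 in hippocampus. The 50 genes on each side of Tap1 on chromosome 17 take in class II genes, and 0 of them passed in hippocampus, bulb or the animal averages. Of these 100 genes 6, 8 and 7 had an unadjusted p under 0.05 (limma), and of the 100 around B2m 16, 18 and 20. Over all genes the shares were 8.91%, 11.3% and 9.93%. Whether the difference of B2m and those of the genes around it share a source was not tested.

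**Figure D4:**
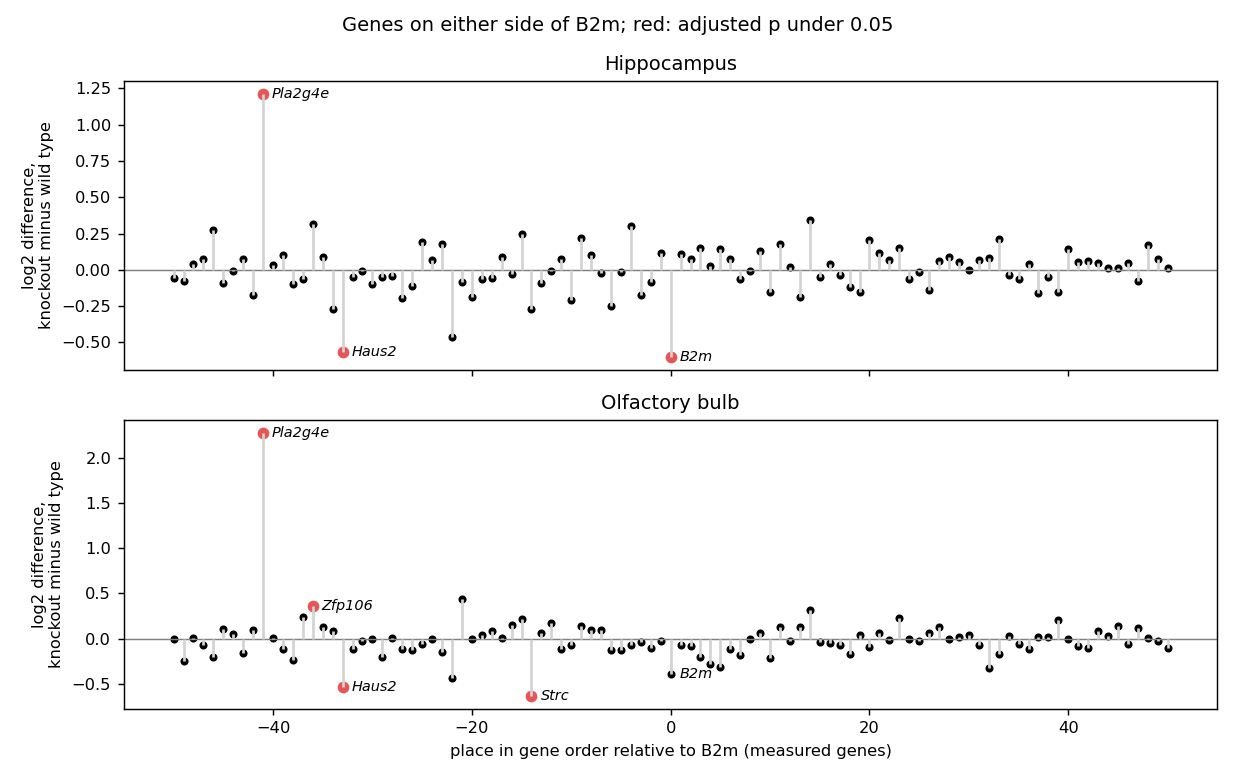
Difference between knockout and wild type on the log2 scale (vertical axis) of B2m and the 50 measured genes on each side of it, by place in gene order (horizontal axis), in hippocampus (top) and olfactory bulb (bottom). Red points passed the adjusted threshold. Pla2g4e at 1.21 and 2.27 and Haus2 at -0.56 and -0.54 stand out in both tissues, and the genes next to B2m lie at 0.12 and 0.11 in hippocampus.

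Other genes of the same pathways were read from lists of genes that are not members. Over all genes 8.91% in hippocampus and 11.3% in the bulb had an unadjusted p under 0.05 (limma). Of 21 further class I genes 0 passed in either tissue (limma, with 1 and 2 at an unadjusted p under 0.05), with medians of 0.03 in hippocampus and -0.05 in the bulb. H2-M3, a class I gene that presents formylated peptides, differed by 0.27 and Tapbpl by 0.17 in hippocampus. In the bulb Cd1d1, which presents lipids, differed by -0.36 (adjusted p = 0.188) and the chaperone gene Calr by -0.16. Of 10 further class II genes 0 passed (0 and 2 at an unadjusted p under 0.05). Ifi30, a lysosomal thiol reductase gene, differed by 0.25 in the bulb (adjusted p = 0.244).

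Of 30 genes of interferon ligands, receptors and signalling 0 passed (limma, 1 and 2 at an unadjusted p under 0.05). The feedback inhibitor gene Socs1 differed by 0.25 in hippocampus (adjusted p = 0.536) and the phosphatase gene Ptpn2 by 0.33 in the bulb (adjusted p = 0.193). Of 48 further interferon-stimulated genes 0 passed, with 6 in each tissue at an unadjusted p under 0.05. Such a p was found for 8.91% of all genes in hippocampus and 11.3% in the bulb. Nearest was Ifi203, a DNA-binding Ifi200 family gene, at 7.77, 7.34 and 7.37 in wild-type and 7.01, 7.08 and 6.39 in knockout hippocampus. These values did not overlap, as for 3.66% of all genes in this direction, and the difference of -0.67 (SE 0.175) had an adjusted p of 0.218. In the bulb Ifi203 differed by 0.24, and the difference of effects, -0.91, did not pass (adjusted p = 0.353).

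Members were also compared between the tissues, where calls were many over all genes. In wild type 2 members were higher in hippocampus and 9 higher in olfactory bulb, where 17.5% and 23.4% of all genes were called in these directions. In knockout the counts were 3 and 10, against 19.2% and 19.9%. In either direction that is 11 of 32 in wild type and 13 of 32 in knockout, against 40.9% and 39.1% of all genes, shares near the background. With arrays centred on their medians, 3 were higher and 5 lower in wild-type hippocampus, and over all genes the split turned from 3480 higher and 4668 lower to 4417 and 3274. Quantile normalization gave 2 higher and 4 lower. Leaving out wild-type hippocampal replicate 3 left 1 higher and 4 lower, and leaving out wild-type bulb replicate 1 left 5 lower.

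The Ifit genes carried the largest of these differences, and their tissue groups did not overlap in either genotype, as was so in this direction for 30.1% of all genes in wild type and 24.7% in knockout. Ifit2 read 6.17, 5.91 and 6.20 in wild-type hippocampus and 7.02, 7.23 and 6.96 in wild-type bulb, a difference of -0.98 (SE 0.102, limma adjusted p = 1.5e-06). For Ifit1 the values were 6.23, 5.89 and 6.03 in hippocampus and 6.79, 6.99 and 7.04 in the bulb, which differ by -0.89 (SE 0.158). For Ifit3 they were 7.10, 6.60 and 6.68 in hippocampus and 7.75, 7.46 and 7.31 in the bulb, which differ by -0.72 (SE 0.166). In knockout the differences were -0.99 for Ifit2, -1.06 for Ifit1 and -0.998 for Ifit3. All 3 genes passed in both genotypes under each of 16 alternatives. All 3 lie on chromosome 19, and the promoters of Ifit1 and Ifit3 hold the pairs of matches shown above, while these letters are not in the windows of Ifit2.

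Usp18 read 6.13, 6.23 and 5.93 in wild-type hippocampus and 6.61, 6.63 and 6.37 in wild-type bulb, a difference of -0.44 (adjusted p = 0.00912, 0.0512 without wild-type hippocampal replicate 3). Ifih1 was at 5.86, 5.74 and 5.64 in hippocampus and at 6.00, 6.15 and 6.00 in the bulb, and differed by -0.31 (adjusted p = 0.0101). Its call was lost under quantile normalization (0.0967) and without wild-type hippocampal replicate 3 (0.0551). In knockout the differences were -0.68 for Usp18, -0.46 for Ifih1 and -0.50 for Oasl2, all past the threshold. Xaf1 (-0.26), Rtp4 (-0.27), Irf9 (-0.21) and H2-Eb1 (-0.21) were also lower in wild-type hippocampus.

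Irf1 and Ifi27 were higher in hippocampus, with no overlap in either genotype, as for 20.8% of all genes in wild type and 24.2% in knockout. Irf1 read 7.24, 7.17 and 7.14 in wild-type hippocampus and 6.86, 6.74 and 6.80 in wild-type bulb, a difference of 0.38 (SE 0.066, limma adjusted p = 0.000256), and 0.30 in knockout. Ifi27, an interferon-induced gene, was at 8.31, 8.12 and 8.38 in hippocampus and at 7.98, 8.06 and 7.93 in the bulb, and differed by 0.28 (adjusted p = 0.0139), and 0.34 in knockout. In wild type the call of Ifi27 was lost without bulb replicate 3 (0.0523) and without hippocampal replicate 3 (0.0751). Psmb10 was higher in knockout hippocampus than in knockout bulb, by 0.27 (adjusted p = 0.0187), at 0.18 in wild type.

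**Figure D5:**
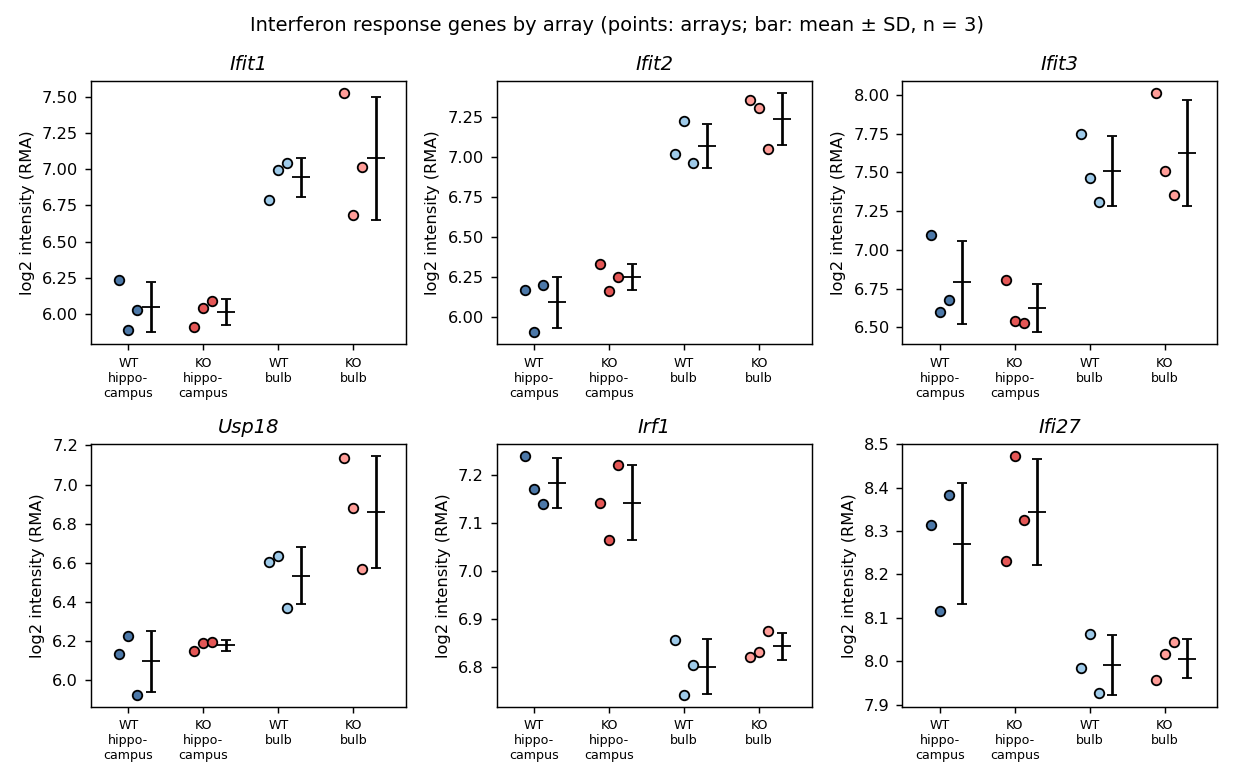
Log2 intensity (vertical axis) of Ifit1, Ifit2, Ifit3, Usp18, Irf1 and Ifi27 in wild-type (WT) and knockout (KO) arrays of hippocampus and olfactory bulb. Points are arrays and bars the mean ± SD of 3. Ifit1, Ifit2 and Ifit3 are higher in every bulb array than in every hippocampal array, Irf1 and Ifi27 are lower, and the genotypes overlap within each tissue.

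B2m itself differed between the tissues by -0.18 in wild type (adjusted p = 0.218) and by -0.38 in knockout (adjusted p = 0.0129), where hippocampus was lower. The knockout call was lost without knockout hippocampal replicate 6 (0.0642) and with array weights (0.0563). The probe sets shared by H2-K1 and H2-D1 were lower in hippocampus as well, by -0.41 and -0.40 in wild type (adjusted p = 0.00328 and 0.0186) and by -0.51 and -0.47 in knockout. That of H2-T23 and H2-T-ps differed by -0.31 in wild type (adjusted p = 0.00316) and by -0.14 in knockout (adjusted p = 0.109). H2-Aa was lower in knockout hippocampus than in knockout bulb, by -0.31 (adjusted p = 0.0373). Among 15 microglial markers 6 were higher and 4 lower in wild-type hippocampus, and 6 of 11 endothelial markers were lower there. Of all genes 17.5% were called higher and 23.4% lower in wild type. In knockout 5 microglial markers were higher and 1 lower, and 6 endothelial markers were lower, against 19.2% and 19.9% of all genes. The part of these cell types in the tissue differences was not tested.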

How the data were processed

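Biotin-labelled RNA of hippocampus and olfactory bulb from 3 wild-type and 3 knockout mice was read on 12 arrays of 1 colour, per the labels. The authors deposited 1 log2 intensity for each of 35556 probe sets, made with RMA and the oligo package per the submitters' processing notes. RMA corrects background, normalizes quantiles between arrays and compresses differences near background. The sources used here do not give versions, the genome build or whether both tissues were normalized at once. In the platform annotation 21789 probe sets have a single symbol, 1621 have several and 12146 are unlisted. The probe set of highest mean stood for each of 19938 genes, with no filter on dim genes. There is no sequencing depth here, and precision is set by the number of arrays. The SD of the difference between replicates, over probe sets, was 0.212 to 0.297, with no duplicate arrays. H2, Ifit, Gbp and Ifi200 genes belong to families of similar sequence, and cross-hybridisation was not examined.

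Groups came from the titles. Tests used limma 3.58.1 in R 4.3.3 (lmFit and eBayes on 4 group means over 12 arrays) with Benjamini-Hochberg adjustment over all genes at 0.05. For averages by animal the tissues were joined by the animal code. The labels name the same animals in both tissues, but the code and the title number disagree on which wild-type tissues belong together for 2 of them. Deviations from the group means correlated across genes, within animals joined by the code, with r of -0.255 to 0.116, so they did not bear the pairing out. Joined by the title number, r was 0.252, -0.153 and -0.0727 in wild type. A wild-type pair joined by neither label had an r of 0.359, so the title number was not borne out either. limma's consensus correlation of an animal was -0.0697. Values were read with the R package data.table (version 1.17.8), promoters were searched in Python 3.11.15 with pandas 2.3.3, and figures used matplotlib 3.10.9. The procedure was tested on simulated data. The members, lists and named genes were chosen with earlier results of these data known. Values by array are given for B2m, each member called between genotypes, the 3 nearest the threshold in a comparison of genotypes, and up to 5 members in each direction between tissues. Of the pathway lists, genes called between genotypes and up to 3 others of smallest p are named, and of the marker lists those called between genotypes. Tissue calls are given for some of these lists only. Further genes are given as single differences or ranges. Alternatives covered moderation, array weights, centring, quantile normalization, probe set choice, a filter on dim genes, the arrays fitted, the animal as a block and each array left out.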

Additional observations from a re-analysis of the deposited data

How the results depend on the processing

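Of 782 recomputed values 27 became weaker, 1 moved by more than the spread between replicates, and no called value turned its direction. Weaker means that a gene lost its call or that a count of called members fell by more than a set factor. The lost call of B2m in hippocampus enters both as a gene and as a count, and many of the values had no call to lose. Medians of the members near 0 did change sign. That of the bulb, 0.0386, was -0.00677 without knockout bulb replicate 4, and that of the difference of effects ran down to -0.0317 with an array left out. The decrease of B2m in hippocampus stayed at -0.598 but missed the threshold when every probe set was tested (adjusted p = 0.0863) and when only the arrays of the tissue were fitted (0.176), so that 0 members were called there. Across arrays left out in turn it ran from -0.709 to -0.501 and the count from 0 to 1. In the animal averages the count was 0 when every probe set was tested and 1 without any one animal. Between the tissues in wild type, members lower in hippocampus numbered 5 after centring and 4 after quantile normalization, and 4 to 10 with an array left out, while those higher numbered 1 to 2. With the replicate block by animal code 8 were lower and 2 higher in wild type and 10 and 2 in knockout, the same counts as with the block by title number, and the block changed no call of B2m between genotypes. The median difference of effects of the members between the tissues was -0.107 after quantile normalization and 0.00879 as deposited; its cause was not tested. In hippocampus over all genes, centring gave 20 higher and 25 lower in knockout, in place of 29 and 22, array weights 222 and 114, every probe set 49 and 76, and the tissue's own arrays 12 and 16. For the bulb, 37 higher and 45 lower became 71 and 65 with trend and robust moderation, 80 and 24 with every probe set and 18 and 18 with its own arrays. For the animal averages, 62 and 53 became 100 and 81 with that moderation, 52 and 72 after centring and 77 and 29 with every probe set. Without knockout bulb replicate 6 the bulb counts were 17 and 18. Groups of 3 arrays and probe sets near background limit what small differences could be seen.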

Other observations

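Among the 48 further interferon-stimulated genes, 14 were lower and 1 higher in wild-type hippocampus than in wild-type bulb, and 12 and 1 in knockout (limma), where 23.4%, 17.5%, 19.9% and 19.2% of all genes were called in these directions. The GTPase gene Mx2, an antiviral factor, read 4.55, 4.85 and 4.43 in wild-type hippocampus and 5.55, 5.81 and 5.68 in wild-type bulb, a difference of -1.07. Samd9l, another antiviral gene, differed by -0.47 in wild type and -0.74 in knockout. Parp12 differed by -0.30 and -0.75, and Herc6, an Isg15 ligase, by -0.37 and -0.60. Ifi203 was the 1 gene of the list that was higher in hippocampus, by 1.58 in wild type and 0.67 in knockout. These genes were picked after their values were seen.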
